A study of Homo sapiens with 6 samples.

Results

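Glutathione S-transferases (GSTs) were examined in U87MG cells, a human glioblastoma line, after exposure to RSL3. RSL3 is a small molecule that inhibits glutathione peroxidase 4 (GPX4) and thereby triggers ferroptosis, an iron-dependent cell death marked by lipid peroxidation. The genes were chosen by name, as 10 members of the family, with earlier results of these data known. They were the cytosolic GSTP1, GSTM2, GSTM3, GSTM4, GSTO1 and GSTA4, the mitochondrial and peroxisomal GSTK1, and the membrane-bound MGST1, MGST2 and MGST3. All 10 were found among the 65988 gene identifiers of the count files, and all 10 were among the 16105 genes with enough reads to be tested. The series compared 3 libraries of wild-type cells given vehicle (0 µM RSL3, control) with 3 libraries of wild-type cells given 2 µM RSL3, for a day per the study's legend. The comparison asked which transcripts differ once ferroptosis is triggered. A single established line was used. The study's general statistics section speaks of biologically independent experiments or samples, but the labels did not say whether the 3 libraries of a group came from separate cultures, so p-values measure the spread between these libraries, which may be technical.

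GSTs join the thiol of glutathione to electrophiles, among them reactive aldehydes and quinones left by lipid peroxidation, and the conjugates are exported and trimmed to mercapturates. The cytosolic enzymes fall into classes named by Greek letters (alpha, mu, pi, omega and others), the kappa enzyme has a separate evolutionary origin, and the MGST proteins belong to the MAPEG superfamily of small membrane proteins, some of which also reduce lipid hydroperoxides or make leukotrienes. Many GST genes are known targets of NRF2, a transcription factor that binds antioxidant response elements and is held in check by KEAP1.

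The libraries held 27813462 to 43306335 counted reads, and their normalization factors ran from 0.995 to 1.008. Values below are normalized counts, that is, reads per gene brought to a common library size. The glioma and mesenchymal markers VIM, CD44, CHI3L1, TNC and NES were all well above the detection limit, with a summed normalized count of 139304 to 140687 in control and 123884 to 128833 in RSL3 libraries. These 5 markers did not move together: VIM (log2 fold change -0.29), CD44 (-0.39) and CHI3L1 (-0.56) fell, TNC rose (0.21, adjusted p = 6.34e-06 by edgeR) and NES was at 0.25 (adjusted p = 0.203). Of 4 astrocyte markers, AQP4 was listed at 0 and S100B had at most 1 read, while GFAP had 82 to 154 reads (log2 fold change 0.40, adjusted p = 0.0726 by edgeR) and SLC1A3 had 391 to 881 (-0.56, adjusted p = 7.06e-06). Of 4 microglia and leukocyte markers, AIF1 was listed at 0, PTPRC had at most 1 read, CD68 had 3 to 16 and CSF1R 68 to 140. Neither CD68 (adjusted p = 0.976) nor CSF1R (adjusted p = 0.312), the members tested, was called by edgeR. Tested neuron, oligodendrocyte, endothelial and epithelial markers went both ways. SYT1 (log2 fold change 0.24, adjusted p = 0.00214 by edgeR) and MBP (0.71, adjusted p = 0.00185) rose. SNAP25 (-1.04, adjusted p = 4.84e-05) and VWF (-1.33, adjusted p = 0.00111) fell, and OLIG2, EPCAM and KRT18 were not called. GPX4, the target of RSL3, was lower with treatment, at 10940 ± 262 normalized counts in control and 8191 ± 105 in RSL3 libraries (SD, n = 3), a log2 fold change of -0.42 (adjusted p = 1.67e-09, edgeR's quasi-likelihood test).

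The start regions of 4 of the genes are shown because 3 of them hold the core of an antioxidant response element and the gene with the largest fold change does not. Those 3 did not change alike: GSTP1 was higher with RSL3, GSTO1 was not called and GSTA4 was lower, as given below. Sequences are RefSeq windows of 300 bases on GRCh38.p14, from 250 bases before to 50 bases after the transcript start, written 5′ to 3′ on the strand of the gene. Capitals mark matches to the core TGACNNNGC on either strand. The windows lie at chr11:67583562-67583861 (plus strand) for GSTP1, chr10:104254642-104254941 (plus) for GSTO1, chr6:52995235-52995534 (minus) for GSTA4 and chr1:109740989-109741288 (minus) for GSTM3. The GSTO1 window lies inside the longer gene span that GENCODE gives.
GSTP1: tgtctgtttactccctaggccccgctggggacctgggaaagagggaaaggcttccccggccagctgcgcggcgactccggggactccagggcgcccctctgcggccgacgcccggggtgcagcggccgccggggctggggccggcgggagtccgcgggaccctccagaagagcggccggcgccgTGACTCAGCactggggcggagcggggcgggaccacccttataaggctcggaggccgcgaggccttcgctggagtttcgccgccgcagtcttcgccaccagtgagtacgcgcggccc
GSTO1: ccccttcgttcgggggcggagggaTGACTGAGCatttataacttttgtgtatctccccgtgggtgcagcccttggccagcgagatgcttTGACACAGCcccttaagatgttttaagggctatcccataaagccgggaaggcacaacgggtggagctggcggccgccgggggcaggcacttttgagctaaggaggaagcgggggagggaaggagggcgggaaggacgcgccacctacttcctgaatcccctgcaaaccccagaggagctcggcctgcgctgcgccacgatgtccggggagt
GSTA4: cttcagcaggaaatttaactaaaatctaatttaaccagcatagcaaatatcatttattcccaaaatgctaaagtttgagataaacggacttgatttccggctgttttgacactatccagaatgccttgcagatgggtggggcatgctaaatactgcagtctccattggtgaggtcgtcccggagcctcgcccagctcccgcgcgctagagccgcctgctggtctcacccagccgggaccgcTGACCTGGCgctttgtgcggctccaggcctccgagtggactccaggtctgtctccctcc
GSTM3: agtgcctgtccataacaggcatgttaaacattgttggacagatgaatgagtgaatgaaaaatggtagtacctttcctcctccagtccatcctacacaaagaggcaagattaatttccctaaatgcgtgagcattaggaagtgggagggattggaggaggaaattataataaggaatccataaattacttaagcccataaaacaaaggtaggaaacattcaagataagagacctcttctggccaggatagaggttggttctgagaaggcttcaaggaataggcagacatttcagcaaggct

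The window of GSTP1 held 1 core match, TGACTCAGC, 66 to 58 bases before the start, which also contained the AP-1 motif TGANTCA as TGACTCA. GSTO1 held 2 matches, TGACTGAGC at 226 to 218 and TGACACAGC at 161 to 153 bases before the start, and GSTA4 held TGACCTGGC at 9 to 1 bases before it. GSTM3 held no match to the core, the AP-1 motif, the GC box GGGCGG or TATAAA, and had 1 CpG against 36 in the GSTP1 window and a median of 14 over all windows. Windows were present for 9 of the 10 genes (MGST2 had none), and apart from those shown a core match was seen in 1 of the 3 windows of MGST1. Among all 35114 RefSeq windows, 13.3% held the core on either strand, 7.71% held the AP-1 motif and 45% held the GC box. These matches describe letters in the reference sequence and no binding was measured here.

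With RSL3, genes of the family differed from control in both directions. GSTP1 and GSTM3 were higher, GSTA4, MGST3 and GSTK1 were lower, and GSTM2, GSTM4, GSTO1, MGST1 and MGST2 did not pass the test (edgeR's quasi-likelihood test, Benjamini-Hochberg adjusted p under 0.05 over all genes tested). Thus 5 of 10 genes were called, against 25.6% of all genes tested. Since the 10 were chosen with earlier results of these data known, this share does not stand for the whole family. Of 6 other GST genes tested, 1 was called. Of the 10 genes, 2 were higher, against 12.9% of genes tested, and 3 were lower, against 12.7%. The 5 called genes were also the 5 whose control and RSL3 libraries did not overlap, which was so for 38.6% of genes tested. The 5 called, the 2 higher and the 5 not overlapping include GSTM3, which reached the low-count floor in only 2 control libraries. It was tested because 3 RSL3 libraries reached that floor. With a minimum of 10 counts in every library GSTM3 was not tested, and 4 genes were called, 1 higher and 3 lower. The median log2 fold change of the 10 genes was -0.06, with a median absolute value of 0.18, against -0.00 and 0.14 over all genes tested. In bulk RNA, fewer cells that express a gene and less of its RNA per cell cannot be told apart. The part played in these values by the glioma and mesenchymal markers, of which 3 fell and TNC rose, was not tested.

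**Figure D1:**
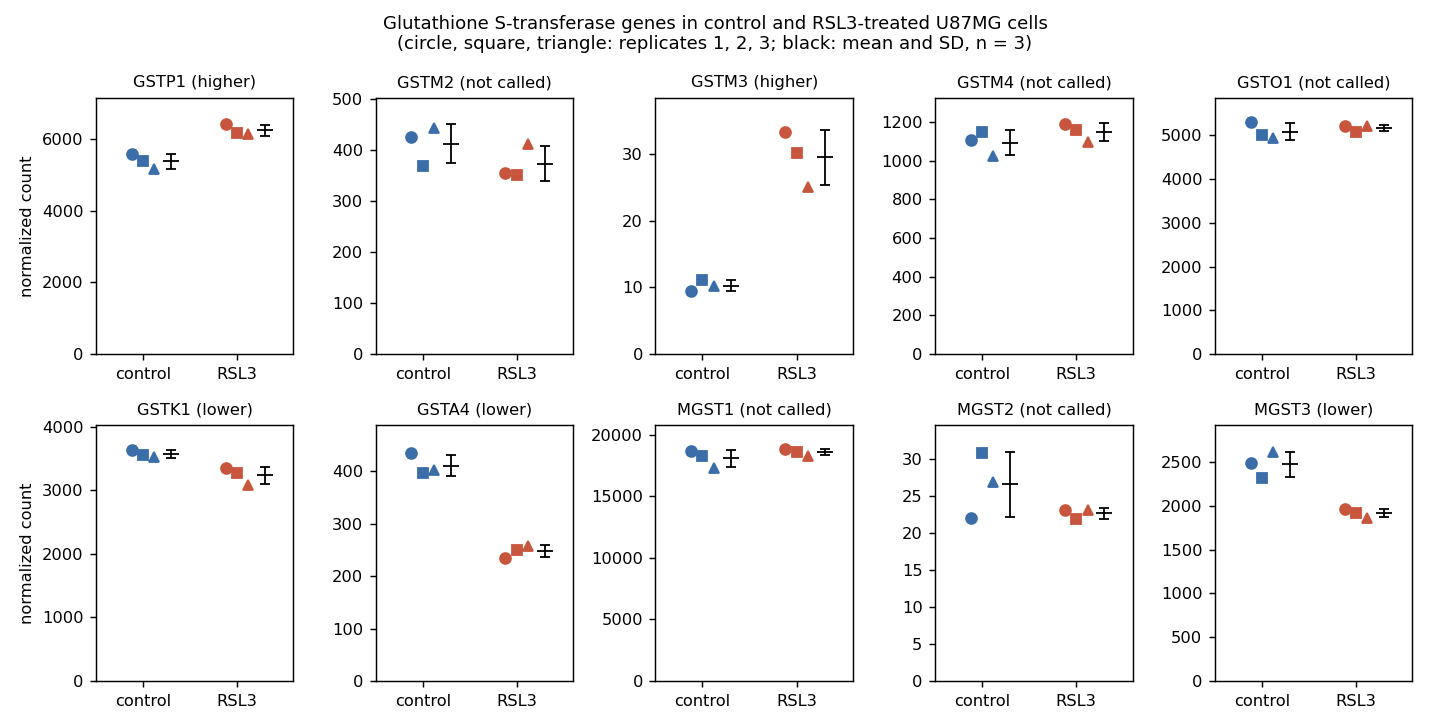
Normalized counts of the 10 genes (vertical axes, linear and from 0) in the 3 control (blue) and 3 RSL3 (red) libraries, with symbols for replicates 1 to 3 and the mean and SD in black. The groups are apart in GSTP1, GSTM3, GSTK1, GSTA4 and MGST3 and overlap in the other 5 panels.

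GSTP1 (ENSG00000084207, chromosome 11, 67583742 to 67586656, plus strand, GRCh38) encodes the pi-class enzyme, an abundant cytosolic GST of many tumors. Its normalized counts were 5597, 5387 and 5164 in the control libraries and 6432, 6178 and 6158 in the RSL3 libraries. Every RSL3 library was above every control library, and the means were 5382 ± 216 and 6256 ± 152 (SD, n = 3). The difference was small next to that of GSTM3 but precise, a 1.16-fold rise with a log2 fold change of 0.22 (SE 0.03, 95% interval 0.14 to 0.29, adjusted p = 7.39e-05 by edgeR). By log2 fold change it ranked 1106 among the 2082 genes called higher.

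GSTM3 (ENSG00000134202, chromosome 1, 109733932 to 109741038, minus strand) encodes a mu-class enzyme known from brain and testis, and lies in the mu-class cluster. It was barely expressed here, with 12, 9 and 11 raw reads in control libraries and 29, 29 and 25 in RSL3 libraries. Normalized counts were 9.43, 11.1 and 10.2 in control and 33.3, 30.1 and 25 in RSL3 libraries, so the groups were well apart despite the low depth. The mean rose from 10.2 ± 0.822 to 29.5 ± 4.23 (SD, n = 3), 2.88-fold, with a log2 fold change of 1.52 (SE 0.37, 95% interval 0.75 to 2.29, adjusted p = 0.00382 by edgeR). The absolute change of 99.6% of genes tested was smaller, but the interval is the widest of the called members. The filter asked for 0.298 CPM (counts scaled to library size) in 3 libraries, which 3 RSL3 and only 2 control libraries reached, so a GSTM3 that had not been higher with RSL3 might not have been tested. Of its exon bases, 4.25% are shared with ENSG00000241720, which was listed at 0 in all libraries.

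GSTA4 (ENSG00000170899, chromosome 6, 52977948 to 52995304, minus strand) encodes the alpha-class enzyme known for conjugating 4-hydroxynonenal, an aldehyde product of lipid peroxidation. Its normalized counts were 434, 396 and 402 in control and 235, 250 and 258 in RSL3 libraries. No RSL3 library came near the lowest control library, and the spread within groups was small. The mean fell from 411 ± 20.3 to 248 ± 11.8 (SD, n = 3), which is 0.603-fold, with a log2 fold change of -0.73 (SE 0.09, 95% interval -0.93 to -0.54, adjusted p = 4.71e-06 by edgeR). This was the largest fall among the 10 genes, and 95.2% of all genes tested had a smaller absolute change.

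MGST3 (ENSG00000143198, chromosome 1, 165631213 to 165661796, plus strand) encodes a membrane-bound enzyme with glutathione transferase and peroxidase activity. Normalized counts were 2491, 2322 and 2614 in control libraries and 1962, 1921 and 1867 in RSL3 libraries, with every RSL3 library below every control library. The mean fell from 2476 ± 147 to 1916 ± 47.7 (SD, n = 3), 0.774-fold, a log2 fold change of -0.37 (SE 0.04, 95% interval -0.46 to -0.28, adjusted p = 1.84e-06 by edgeR). The absolute change was smaller than this in 82.9% of genes tested.

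GSTK1 (ENSG00000197448, chromosome 7, 143244093 to 143270854, plus strand) encodes the kappa enzyme of mitochondria and peroxisomes. Normalized counts were 3632, 3549 and 3520 in control and 3347, 3273 and 3088 in RSL3 libraries. The groups did not overlap, but the lowest control and the highest RSL3 library were close. The mean fell from 3567 ± 58.4 to 3236 ± 134 (SD, n = 3), 0.907-fold, a log2 fold change of -0.14 (SE 0.04, 95% interval -0.22 to -0.06, adjusted p = 0.0067 by edgeR). This call rested on the lowest library: without RSL3 replicate 3 the log2 fold change was -0.10, with an adjusted p of 0.0523 by edgeR.

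**Figure D2:**
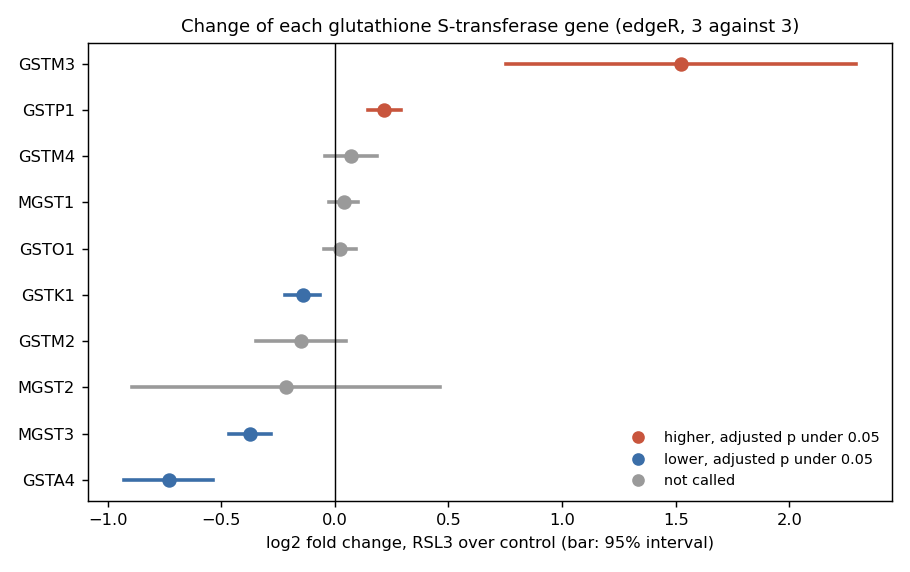
Log2 fold change of RSL3 over control for each of the 10 genes (points) with its 95% interval (bars), coloured by the edgeR call. GSTM3 lies farthest to the right at 1.52 with the widest bar of the called genes, and GSTA4 lies farthest to the left at -0.73.

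The 5 genes that did not pass the test differed in how tightly the data bound their change. MGST1 (ENSG00000008394, chromosome 12, 16347142 to 16609259, plus strand), a microsomal and mitochondrial-membrane enzyme that conjugates electrophiles and reduces lipid hydroperoxides, had normalized counts of 18678, 18236 and 17294 in control and 18785, 18600 and 18294 in RSL3 libraries. The groups overlapped, with means of 18069 ± 707 and 18560 ± 248 (SD, n = 3) and a log2 fold change of 0.04 (95% interval -0.03 to 0.10, adjusted p = 0.41 by edgeR). GSTO1 (ENSG00000148834, chromosome 10, 104235356 to 104267459, plus strand), the omega enzyme, which acts as a thioltransferase and dehydroascorbate reductase, had 5293, 5007 and 4941 in control and 5209, 5079 and 5200 in RSL3 libraries. Its libraries were interleaved, with a log2 fold change of 0.02 (95% interval -0.05 to 0.09, adjusted p = 0.698 by edgeR). For both genes the interval kept any change to at most 0.10 in either direction on the log2 scale.

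GSTM4 (ENSG00000168765, chromosome 1, 109656099 to 109665496, plus strand) and GSTM2 (ENSG00000213366, chromosome 1, 109668022 to 109709551, plus strand) encode mu-class enzymes, of which GSTM2 is known for conjugating dopamine-derived quinones. GSTM4 had normalized counts of 1109, 1149 and 1026 in control and 1190, 1158 and 1099 in RSL3 libraries, a log2 fold change of 0.07 (95% interval -0.04 to 0.19, adjusted p = 0.402 by edgeR). GSTM2 had 425, 369 and 442 in control and 355, 351 and 412 in RSL3 libraries, a log2 fold change of -0.15 (95% interval -0.35 to 0.05, adjusted p = 0.285 by edgeR). In both genes the groups overlapped, and for GSTM2 the interval reached about as far as the fall of MGST3. MGST2 (ENSG00000085871, chromosome 4, 139665768 to 139740745, plus strand), which can make leukotriene C4, was scarce, with 22, 30.8 and 26.8 in control and 23, 21.8 and 23 in RSL3 libraries. Its groups overlapped and its log2 fold change of -0.21 (adjusted p = 0.699 by edgeR) had an interval of -0.89 to 0.46, so a change like that of GSTA4 was not detectable at this depth.

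Some reads of the mu-class genes and of MGST2 cannot be assigned with certainty, since counting ignored strand and near-identical copies share sequence. Of all stretches of 75 bases in GSTM2 transcripts, 10.7% also occur in other genes, mostly GSTM1, and for GSTM4 the share was 5.42%. GSTM2 shares 6.13% of its exon bases with GSTM1, whose own counts were 175 ± 11.7 in control and 166 ± 29.6 in RSL3 libraries (SD, n = 3, log2 fold change -0.08, adjusted p = 0.743 by edgeR). The summed normalized counts of GSTM1, GSTM2, GSTM4 and GSTM5 were 1713, 1721 and 1639 in control and 1756, 1667 and 1685 in RSL3 libraries, a ratio of means of 1.01. Any exchange of reads among these 4 genes would leave the sum as it is. Reads that fit several genes were not counted under default settings, and the sum does not recover them. MGST2 shares 7.94% of its exon bases with MAML3, a Notch coactivator gene that rose with RSL3 (log2 fold change 0.52, adjusted p = 0.00579 by edgeR). GSTP1, GSTA4, MGST1 and MGST3 shared neither exon bases nor such stretches with another gene, and for GSTO1 and GSTK1 the share of stretches was 0.349% and 0.108%.

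The levels of the 10 genes differed widely. The level of each gene was taken as RPKM (read count per kilobase, scaled to library size), here over all annotated exon bases. It averaged, in control libraries, 89.5 for GSTP1, 88.1 for GSTO1 and 71.2 for MGST1. Next came GSTK1 at 24.8, MGST3 at 9.01, GSTM4 at 6 and GSTA4 at 5.73 on that scale. GSTM2 at 1.33, MGST2 at 0.245 and GSTM3 at 0.0631 were lowest. The ranges of neighbours in this order did not overlap, except for GSTP1 with GSTO1 and for GSTM4 with GSTA4. With RSL3 the order was kept. GSTP1 (104) then stood clear of GSTO1 (89.5), and GSTM4 (6.3) clear of GSTA4 (3.45), while MGST2 (0.209) and GSTM3 (0.182) came to overlap.

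The order at the top depends on the length that counts are divided by. Divided by the canonical transcript, an alternative added after the data were seen, the control level of MGST1 was 573, above GSTP1 at 213 and GSTO1 at 183, because the union of MGST1 exons (7441 bases) is far longer than its canonical transcript (925 bases). GSTK1, at 101, and MGST3, at 62.7, kept their places on this scale, and so did MGST2, at 1.05, and GSTM3, at 0.0727. GSTM4 was at 23, and GSTM2 (10.4) and GSTA4 (9.71) overlapped in control libraries.

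**Figure D3:**
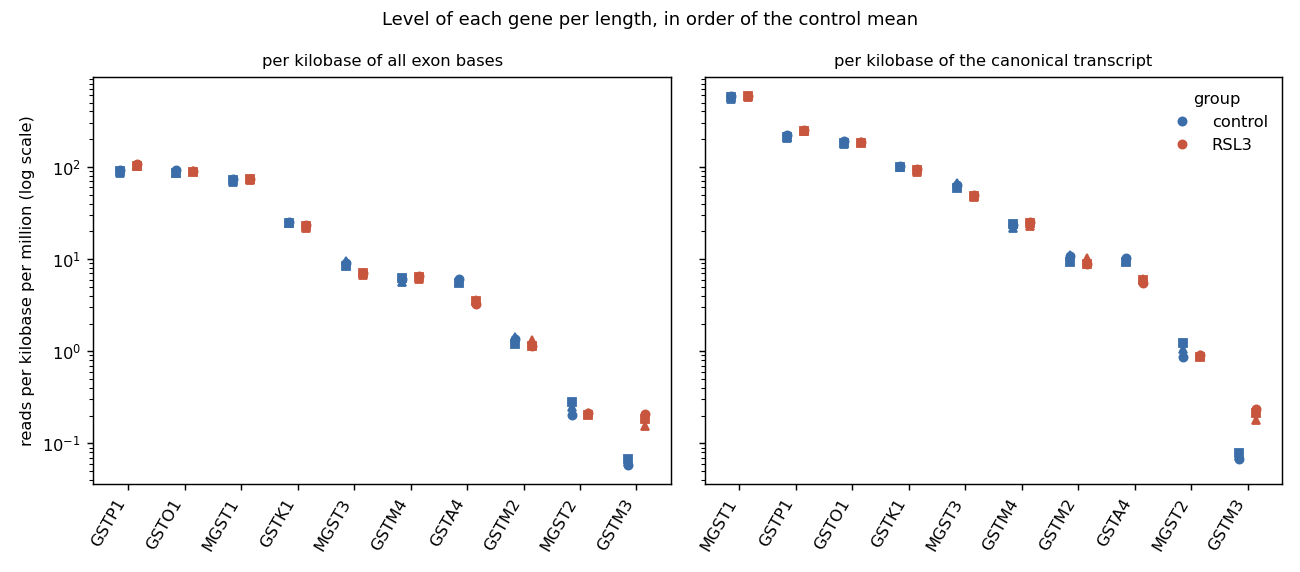
RPKM (vertical axis, log scale) of each gene in the 3 control (blue) and 3 RSL3 (red) libraries, divided by all exon bases (left) or by the canonical transcript (right), with genes in order of the control mean. GSTP1, GSTO1 and MGST1 lead on the left, MGST1 alone leads on the right, and GSTM3 is lowest on both.

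Together the 10 genes took up 1107, 1065 and 1047 CPM in control libraries and 1095, 1077 and 1066 in RSL3 libraries, so the groups overlapped in the total. Within that total, the mean share of GSTP1 reads was 14.7% in control and 16.9% in RSL3 libraries, with no overlap (14.6% to 14.8% against 16.8% to 17.1%). The share of MGST3 was 6.78% and 5.19%, that of GSTK1 9.77% and 8.76%, and that of GSTA4 1.12% and 0.67%. MGST1 supplied 49.5% and 50.2% of the reads, with all libraries between 48.8% and 50.5%. These are shares of reads, which favour long transcripts, and not of molecules.

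The changes in the members were stable in direction under other processing. Over 20 alternatives in normalization, filter, tool, covariates and libraries left out, GSTP1 kept a log2 fold change of 0.19 to 0.25, GSTA4 of -0.76 to -0.69 and MGST3 of -0.41 to -0.33, and all 3 were called in all 20. GSTK1 was called in 18 of 20, with -0.17 to -0.10. GSTM3 was called in 15 of the 16 alternatives that gave it an adjusted p, with 1.43 to 1.64. MGST1 was called in 1 of 20, and GSTM2, GSTM4, GSTO1 and MGST2 in none.

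**Figure D4:**
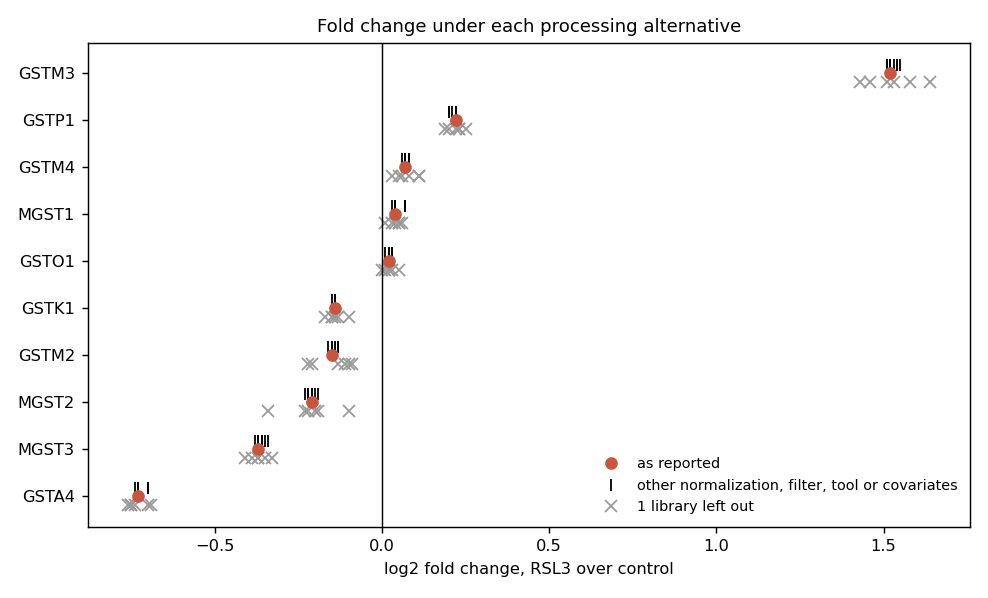
Log2 fold change of each gene as reported (red points), under other normalizations, filters, tools or covariates (black ticks) and with 1 library left out (grey crosses). No gene crosses to the other side of 0, and the crosses spread most in MGST2 and GSTM3, the genes with the fewest reads.

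Other GST genes, relatives and the further lists below were chosen by name, with earlier results of these data known. Shares of calls in these lists therefore describe the listed genes only. Of 14 other GST genes, 13 were found by symbol (GSTT1 was not) and 6 were tested. GSTZ1, the zeta enzyme of tyrosine breakdown, was the only gene of these called, at 1592 ± 98 in control and 1788 ± 97.5 in RSL3 libraries (SD, n = 3, log2 fold change 0.16, adjusted p = 0.0217 by edgeR), and 7 alternatives lost that call. GSTA1, GSTA2, GSTA3, GSTA5 and GSTT2 were listed at 0 in all libraries, a count that allows up to 3 reads per library by counting error alone. GSTT4 and HPGDS had at most 1 read. Of 3 other MAPEG genes, PTGES, the inducible prostaglandin E synthase, fell from 8943 ± 503 to 4801 ± 772 (SD, n = 3, log2 fold change -0.90, adjusted p = 3.26e-09 by edgeR). ALOX5AP was at 0.76 (adjusted p = 0.0674 by edgeR) and LTC4S was listed at 0.

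Among 12 genes for proteins with a GST-like fold, 8 were tested, none was higher and 2 were lower, a share of calls close to the 25.6% over all genes tested. These were CLIC4, of the chloride intracellular channel family (log2 fold change -0.13, adjusted p = 0.00136 by edgeR), and GDAP1, a mitochondrial outer membrane protein (-0.28, adjusted p = 0.00139). EEF1G, a translation elongation subunit used by all cells, was listed at 0 in every library, so a 0 in these files can also be a gene whose reads were not counted. The other untested genes of this list were CLIC1, CLIC6 and VARS1, with at most 2, 3 and 8 reads in a library.

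Genes that supply and reduce glutathione, the shared cosubstrate, were mostly higher with RSL3. Of 7 genes listed under glutathione synthesis and reduction, which include TXNRD1 of the thioredoxin system, all were tested. Of these, 6 were higher and 1 was lower, against 12.9% and 12.7% of all genes tested. Their median log2 fold change was 0.54 against -0.00 over all genes. GCLM, the modifier subunit of the rate-limiting ligase, rose by 0.67 on the log2 scale (adjusted p = 2.89e-11 by edgeR), TXNRD1, thioredoxin reductase, by 0.55 (adjusted p = 1.42e-10) and SLC7A11, the cystine transporter, by 0.54 (adjusted p = 2.39e-10). GSS, glutathione synthetase, was at -0.12 (adjusted p = 0.0428), a call lost in 11 alternatives. Of 8 glutathione peroxidase genes, 4 were tested, none was higher and 3 were lower, where 12.7% of all genes tested were lower. The 3 were GPX1 (-0.68, adjusted p = 6.47e-12 by edgeR), GPX4 as given above, and GPX8 (-0.35, adjusted p = 6.4e-07).

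Downstream of conjugation, the genes were mixed. Among exporters of conjugates, the multidrug resistance proteins ABCC3 (log2 fold change 0.47, adjusted p = 3.42e-08 by edgeR), ABCC2 (0.40, adjusted p = 1.43e-08) and ABCC1 (0.41, adjusted p = 0.00568, lost in 2 alternatives) rose. ABCC5, of the same family, fell (-0.27, adjusted p = 0.00402). ABCC4 (0.01, adjusted p = 0.808 by edgeR) and ABCG2 (0.18, adjusted p = 0.345), of the same list, were not called. Of 16 genes of glutathione breakdown and mercapturate formation, 11 were tested and 3 called, also close to the share over all genes, with CHAC1, which cleaves glutathione in the cytosol (0.34, adjusted p = 2.41e-06), and GGT1, the cell-surface gamma-glutamyltransferase (0.23, adjusted p = 0.00239), higher and the aminopeptidase LAP3 (-0.21, adjusted p = 0.000365) lower.

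Of 14 genes for clearing aldehydes, quinones or epoxides, or for supporting such clearance, 13 were tested. Of these, 8 were higher and 3 were lower, against 12.9% and 12.7% of all genes tested. The higher genes with the smallest p-values were AKR1C1 (log2 fold change 0.78, adjusted p = 4.3e-11 by edgeR), PTGR1 (0.61, adjusted p = 5.81e-10) and EPHX1 (0.37, adjusted p = 7.9e-08). The lower genes were AKR1B1 (-0.23, adjusted p = 7.47e-07), ALDH3A2 (-0.26, adjusted p = 1.44e-05) and CBR3 (-0.64, adjusted p = 0.0169, lost in 5 alternatives). GSTA4, known for conjugating an aldehyde, fell in the same libraries, as did 3 genes of this list, while 8 genes of the list rose.

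Of 7 genes of NRF2 control, 6 were higher, against 12.9% of all genes tested. These include the small MAF partners MAFF (log2 fold change 0.53, adjusted p = 2.39e-10 by edgeR) and MAFG (0.29, adjusted p = 9.67e-07) and the ubiquitin ligase scaffold CUL3 (0.33, adjusted p = 1.78e-07). The list holds partners of NRF2 and genes that restrain it, KEAP1 among the latter, so the count gives no direction of pathway activity. NFE2L2, which encodes NRF2, was at 0.01 (adjusted p = 0.816). NRF2 activity depends largely on protein stability, which these counts do not measure. Of the 4 signalling genes whose proteins GSTs are known to bind or regulate, MAPK8, MAPK9, MAP3K5 and TRAF2, none was called by edgeR or by DESeq2, and none had an unadjusted edgeR p under 0.05.

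**Figure D5:**
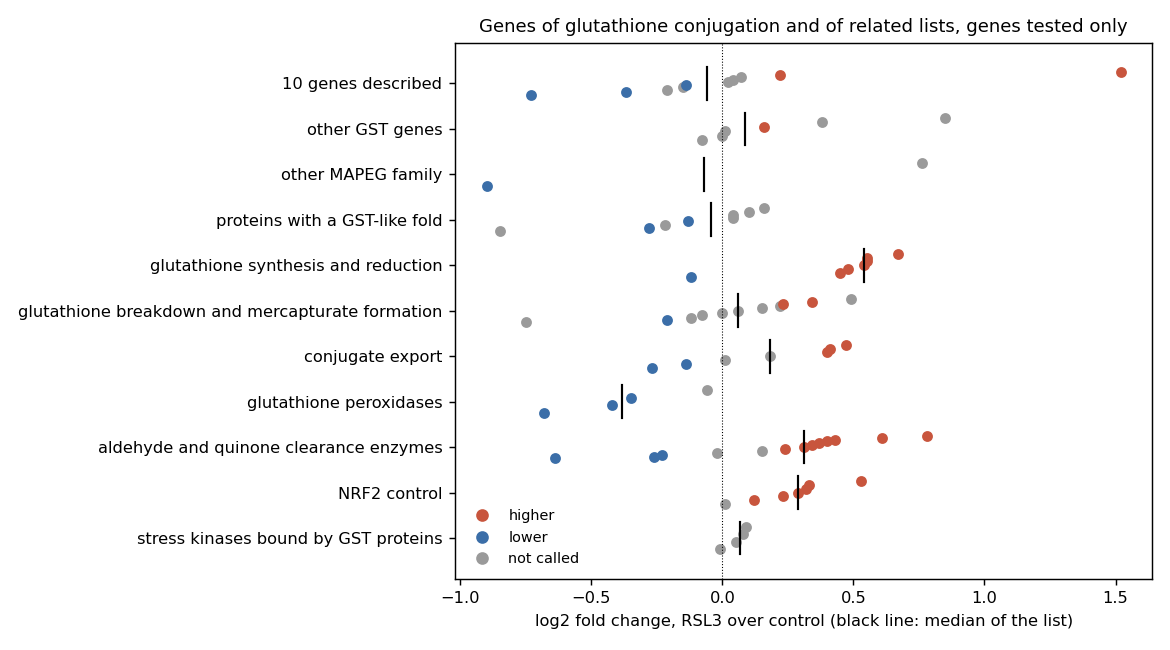
Log2 fold change of RSL3 over control (horizontal axis) for the tested genes of each list, 1 point a gene, red where higher, blue where lower and grey where not called, with the median of each list in black. The 10 genes described spread on both sides of 0 with a median of -0.06, glutathione synthesis and reduction has its median at 0.54 and the glutathione peroxidases have theirs at -0.38.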

How the data were processed

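RNA from U87MG cells was sequenced in 6 libraries (poly(A)-selected, paired-end). After trimming (Trimmomatic 0.36) and alignment by HISAT2 (GRCh38.p4), the authors deposited raw counts per gene, made by HTSeq 0.6.1p1 over exons and without strand. Reads that fit several genes were not counted under the default settings of such counting, and the annotation release is not given in the sources used here.

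From these counts, genes were kept with filterByExpr (minimum count 10), normalized by TMM and tested with edgeR 4.0.16 (quasi-likelihood F test, RSL3 against control, R 4.3.3), with Benjamini-Hochberg adjustment at 0.05 over 16105 genes. A normalized count is a count divided by its library's effective size and multiplied by the mean of those sizes, and intervals are at 95%. The test was checked on simulated counts with 200 changed genes. Gene symbols were found for 56434 of 65988 identifiers. Positions, lengths and shared sequence came from GENCODE 44, promoter windows from RefSeq. Alternatives used DESeq2 1.42.0 without and with 1 or 2 surrogate variables (sva 3.50.0), as the study's methods combine these tools, other filters and normalizations, GC content offsets, the replicate block and each library left out. Totals of 27813462 to 43306335 reads set the precision. Counting error alone lets a count of 0 stand for up to 3 reads.

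The members and lists were chosen with earlier results of these data known. Named were all 10 members, GPX4, and in each list the called genes if 5 or fewer and otherwise the 3 with the smallest p in each direction. Other genes were named after their values were seen, where a count left few. A gene of the export list is not reported here.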

Additional observations from a re-analysis of the deposited data

How the results depend on the processing

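No fold change of the 10 genes turned its direction under any alternative run. The number of genes called, 4123, went to 2691 at an adjusted p under 0.01, to 2453 with DESeq2 and 2 surrogate variables, and to 2359 when that fit was run without independent filtering, an alternative added after the data were seen. In the last of these, 3 of the 10 genes were called, with GSTM3 at an adjusted p of 0.0594 and GSTK1 at 0.0572. The cause was not tested. Leaving out 1 library at a time gave 3081 to 3924 genes called and 4 to 5 of the 10 genes, the 4 coming without RSL3 replicate 3, where GSTK1 was lost. DESeq2 with its default filtering gave no adjusted p for GSTM3 and MGST2, and a minimum of 10 counts in every library removed GSTM3.

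Deviations of same-numbered libraries correlated at 0.022, 0.027 and 0.074 across genes, against -0.051 to 0.024 for the other pairs. For each control library the same-numbered value was the highest. Correlations this small do not settle whether the replicate numbers pair the libraries. With the replicate block 4633 genes and 5 of the 10 were called, and with the block and GC content offsets 4782 and 6, where MGST1 (log2 fold change 0.07) had an adjusted p of 0.0163. Depth limits GSTM3 and MGST2 most.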
